A study of Mus musculus with 3 samples.

Results

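The regions described here are the stretches of chromatin recovered with an antibody against Runx1 that the authors' annotation assigned to a gene of biotype miRNA, snoRNA, snRNA, scaRNA or misc_RNA, wherever they lay relative to that gene. They numbered 4 of 451 regions in replicate 1, 35 of 1641 in replicate 2 and 412 of 13194 in replicate 3, which made 451 of 15286 in all. Replicate 3, with most of the regions, is described in most detail. The samples were spinal cord cells of perfused male C57BL/6J mice aged 8 to 10 weeks, the cells of 5 cords being fixed together. Chromatin of 10 cords was then pooled, and about 10 µg of it was incubated with 9 µg of rabbit polyclonal Runx1 antibody for each of the 3 replicates. The labels describe 1 group and name no treatment or genetic change, no sort for microglia or any other cell, and no separate control library. They do not say whether replicates shared animals, so a p-value over replicates measures only the spread between these samples, which may be technical. For replicate 3 the antibody is described in the tissue field, so the title was used to place it. RNA was not measured, so the tissue could not be checked against marker genes, and a region says nothing of the cell type it came from.

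Runx1 is a DNA-binding transcription factor known for its roles in blood formation and in myeloid cells, and the title of the series concerns microglia. MicroRNAs (miRNAs) are short RNAs that lower the output of messenger RNAs matching their seed, the stretch of bases near the 5′ end, and several of them mark neurons or oligodendrocytes. Small nuclear RNAs (snRNAs) form the core of the spliceosome, small nucleolar RNAs (snoRNAs) guide the modification and processing of ribosomal RNA, and small Cajal body RNAs (scaRNAs) guide the modification of snRNAs. The biotype misc_RNA gathers other structured RNAs, among them the Y RNAs and 7SK.

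The mature miRNAs of the genes that the results turn on are shown first, since these are the products of genes to which regions were assigned. Of 140 miRNA gene symbols with a region in any replicate, 75 had a mature sequence in RefSeq (GRCm38.p6), with 120 sequences and 114 different seeds. Capitals mark the seed, bases 2 to 8 from the 5′ end. Of the seeds, 6 were shared by more than 1 of these genes. Mir125b-1 and Mir125b-2 give the same mature miR-125b-5p, and Mir99a and Mir99b share the seed ACCCGUA on the 5p arm. The remaining seeds listed here were each found for 1 gene with a region.
miR-125b-5p: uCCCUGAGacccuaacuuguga
miR-99a-5p: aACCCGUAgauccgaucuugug
miR-99b-5p: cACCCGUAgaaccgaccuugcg
miR-219a-5p: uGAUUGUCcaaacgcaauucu
miR-132-3p: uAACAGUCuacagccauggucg
miR-218-5p: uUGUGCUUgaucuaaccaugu
miR-148a-3p: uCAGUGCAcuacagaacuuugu
miR-196a-5p: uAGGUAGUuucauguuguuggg
let-7i-5p: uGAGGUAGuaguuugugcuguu
miR-3065-5p: uCAACAAAaucacugaugcugg
miR-7052-5p: uGUGGGAAgguggaggccuuu
miR-5114: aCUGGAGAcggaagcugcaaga
miR-1936: uAACUGACcugcugugaacuggc
miR-6917-3p: gUCACUUCucuucccaccacag
miR-7000-5p: aGGGGACAgguaucuggacaga
miR-7688-5p: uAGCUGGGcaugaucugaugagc
The genes Mir124a-2 and Mir124a-3, Gm24710, Gm26141, Gm24484 and Gm27773 are given by name only. In replicate 3, 18 of 106 regions of miRNA genes with a mature sequence overlapped that sequence, 45 (42.5%) lay within 1 kb of it, and the median gap was 1703 bp. Most of these regions therefore did not cover the mature miRNA itself.

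MicroRNA genes took the largest number of regions among the 5 biotypes in replicates 2 and 3. Small RNA gene regions made up 0.887% of the list of replicate 1 (95% Wilson interval 0.345 to 2.26), 2.13% of replicate 2 (1.54 to 2.95) and 3.12% of replicate 3 (2.84 to 3.43). Replicate 1 had 2 snRNA, 1 snoRNA and 1 misc_RNA regions and no miRNA region, where 0 of 451 has an upper Wilson limit of 0.845%. Replicate 2 had 16 miRNA, 9 snRNA, 6 misc_RNA and 4 snoRNA regions. Replicate 3 had 199 miRNA, 89 snRNA, 61 misc_RNA, 59 snoRNA and 4 scaRNA regions, which were assigned to 137, 72, 44, 52 and 3 genes. In that replicate 239 of 308 genes (77.6%) had 1 region and 51 had 2, while Mir5114 had the most, with 8. All intervals cover counting error only. The summit pileups of these regions, solved from the deposited values, were 16 to 22 fragments in replicate 1, 14 to 31 in replicate 2 and 12 to 116 in replicate 3, with medians of 17, 19 and 21.

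Few annotated small RNA genes had a region, a lower share than of coding genes in each replicate. Of 3666 miRNA, snoRNA, snRNA and misc_RNA genes in RefSeq, 3 were matched by symbol to a region of replicate 1 (0.0818%, Wilson interval 0.0278 to 0.240), 21 to a region of replicate 2 (0.573%, 0.375 to 0.874) and 174 to a region of replicate 3 (4.75%, 4.10 to 5.48). Over RefSeq genes of any kind the share was 0.781%, 2.59% and 16.0% in replicates 1, 2 and 3, and over protein-coding genes it was 1.51%, 5.17% and 31.5%. In replicate 3 the share was 6.76% for miRNA genes (83 of 1228), 5.68% for snRNA genes (57 of 1004) and 2.31% for snoRNA genes (31 of 1340), against 4.86% for long non-coding genes. Small RNA genes are short, and a region had to be assigned to them over their neighbours to count. The part of gene length and of assignment in these shares was not tested. Only 198 of the 308 symbols of replicate 3 (64.3%) were found in RefSeq, so these shares leave out the genes whose symbol was not found. With any region within 1 kb of the gene body counted, 225 of the 3666 genes (6.14%) had a region in replicate 3, against 7990 of 21887 coding genes (36.5%).

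In replicate 3 most small RNA gene regions lay more than 1 kb from the start of the assigned gene. Of the regions of replicate 3, 129 were intronic, 119 were distal intergenic and 105 were in the promoter class, within 1 kb of the assigned gene's start. Another 28 lay at 1 to 2 kb, 16 at 2 to 3 kb, 10 in exons, 4 in 3′ UTRs and 1 just downstream of a gene. The promoter class held 50% of the small RNA gene regions of replicate 1 (2 of 4), 45.7% in replicate 2 (16 of 35; Wilson interval 30.5 to 61.8) and 25.5% in replicate 3 (105 of 412; 21.5 to 29.9). Over all regions it held 82.7%, 71.4% and 62.6%. The difference from all other regions was -32.5 ± 6.02 percentage points (SD, n = 3), and the share was lower in 3 of 3 replicates. The exact two-sided sign-flip permutation test over replicates gave p = 0.25, the smallest that 3 replicates allow, so this design could not pass 0.05. In each of the 3 lists, the promoter class held exactly the regions whose distance to the assigned gene's start was at most 1 kb (8256 of 8256 in replicate 3). The class thus rests on the same assignment that chose these regions. With regions of predicted genes, those whose symbol is Gm and a number, left out of the small RNA set, the difference was -14.1 points in replicate 2 and -19.0 points in replicate 3, a setting chosen after the data were seen. In replicate 1 the 1 region that remained was in the promoter class (100%, against 83.0% of other regions), and the mean was -5.37. The share was also higher than that of other regions in 1 of 3 replicates at a stricter q of 1e-05, where replicate 1 kept 1 region, and among lists of equal length, where replicate 2 kept 8 (6 in the promoter class, a difference of 0.51 points).

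**Figure D1:**
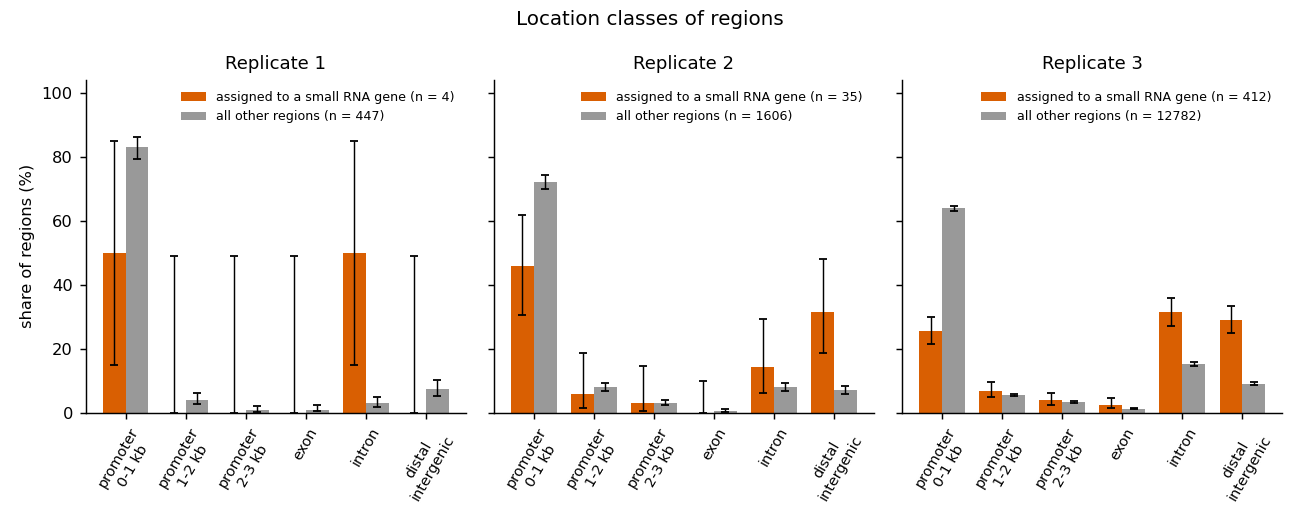
Share of regions (y axis, percent) in 6 location classes (x axis) for regions assigned to small RNA genes (orange) and all other regions (grey) of replicates 1, 2 and 3, with 95% Wilson intervals as bars. The orange promoter bar is the lower of the pair in each replicate, at 50%, 45.7% and 25.5%, and in replicate 3 the intron and distal intergenic bars are higher for small RNA genes.

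Small RNA genes whose symbol is not Gm and a number, called named here, had their regions closer than predicted genes did. This split by symbol was made after the values were seen. It rests on the symbol alone, so a gene with no symbol counted as named, and Gm25641, a source of miR-9b, as predicted. In replicate 3 the 143 regions of 105 named genes lay at a median of 1457 bp from the gene's start, and the promoter class held 64 of them (44.8%, Wilson interval 36.8 to 52.9). The 269 regions of 203 predicted genes lay at a median of 11741 bp, with 41 (15.2%, 11.4 to 20.0) in the promoter class. The medians of named and predicted genes were 1849.5 and 10777 bp for miRNAs, 161 and 20257.5 bp for snoRNAs and 62.5 and 9931 bp for misc_RNA. All 4 regions of named snRNA genes covered the start, where the 85 regions of predicted snRNA genes lay at a median of 16217 bp. In all, 49 of the 412 regions (11.9%) overlapped the small RNA gene itself: 25 miRNA, 12 snRNA, 6 snoRNA and 6 misc_RNA regions. Of the 412 regions, 175 (42.5%) lay over 10 kb from the start of the gene they were assigned to, against 15.9% of all other regions.

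**Figure D2:**
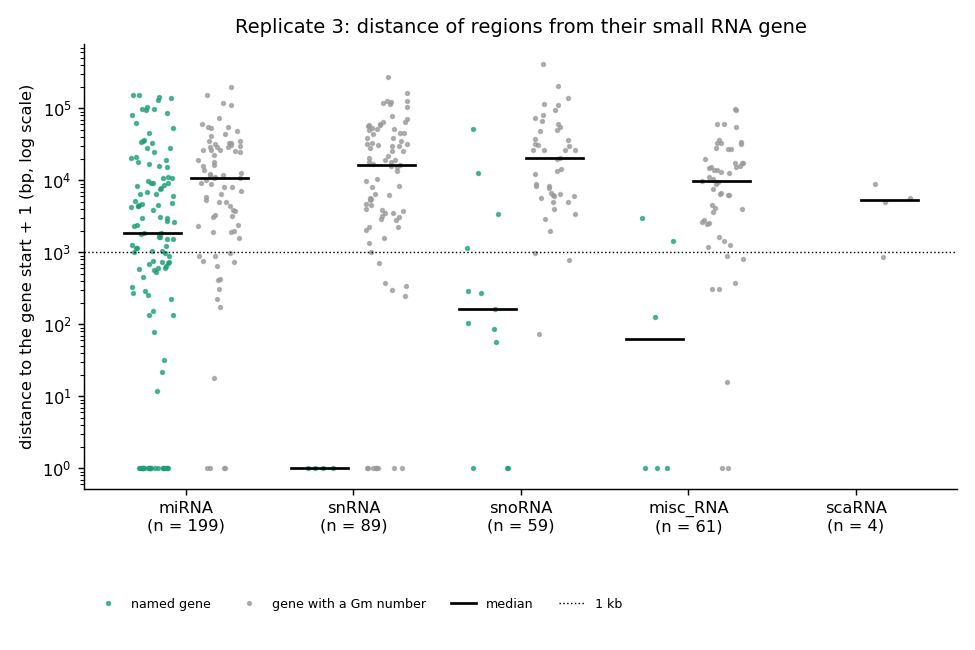
Distance in bp (log scale, with 1 added) from each small RNA gene region of replicate 3 to the start of its assigned gene, by biotype, with named genes in green, genes with a Gm number in grey and medians as black lines. Regions of named snRNA, snoRNA and misc_RNA genes lie mostly below the dotted line at 1 kb, and most regions of predicted genes lie above it.

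Small RNA gene regions were about as strong as the others of their list. The median fold over background, the authors' value at the strongest summit of a region, was 4.77 for small RNA gene regions and 4.86 for all others in replicate 1, 4.19 and 4.00 in replicate 2, and 3.85 and 3.81 in replicate 3. The mean difference of the log2 medians was 0.02 ± 0.05 (SD, n = 3), higher in 2 of 3 replicates, and the exact sign-flip permutation test gave p = 0.75. By biotype the medians in replicate 3 were 3.76 for miRNA, 3.97 for snRNA, 3.95 for misc_RNA, 3.73 for snoRNA and 4.91 for the 4 scaRNA regions. Folds of at least 5 were reached by 89 of 412 small RNA gene regions (21.6%, Wilson interval 17.9 to 25.8) and by 20.6% of all others. Within location classes of replicate 3 the medians of small RNA gene regions and others were 3.97 and 3.84 at promoters, 3.81 and 3.78 in introns and 3.83 and 3.93 in distal intergenic sequence.

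Widths did not differ in 1 direction either. The median width of small RNA gene regions was 397, 492 and 429 bp in replicates 1, 2 and 3, where that of all others was 335, 425 and 471 bp. The mean difference of the log2 medians was 0.11 ± 0.21 (SD, n = 3), higher in 2 of 3 replicates (exact sign-flip permutation p = 0.50). The direction turned when lists of equal length were compared, to -0.037. A few regions were far wider than these medians: those assigned to Mir124a-2 (13879 bp), Mir148a (5655 bp), Gm27403 (4688 bp), Mir219a-2 (3797 bp) and Mir125b-2 (2279 bp) were the widest 5 of replicate 3.

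**Figure D3:**
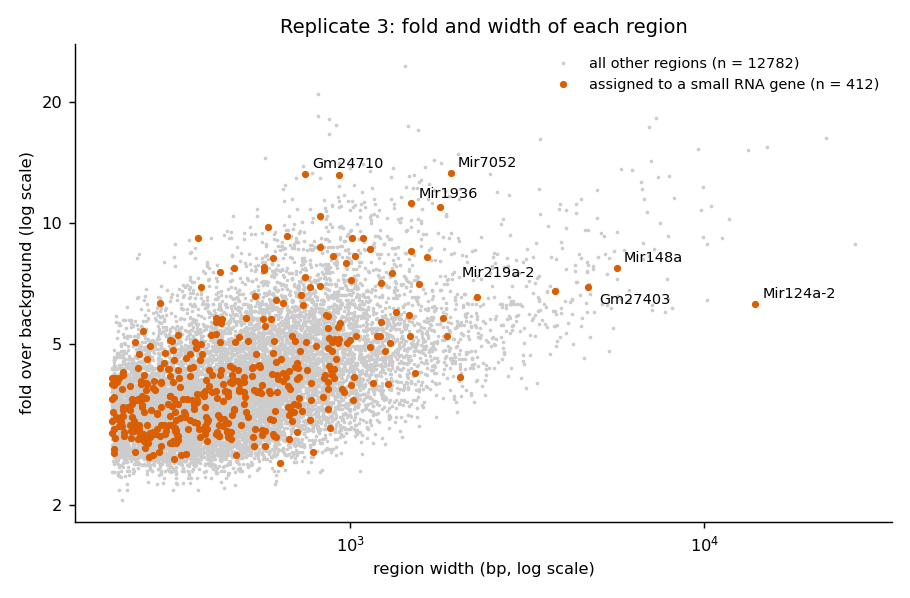
Fold over background (y axis, log scale) against width in bp (x axis, log scale) for each region of replicate 3, with small RNA gene regions in orange over all others in grey. The orange points lie within the range of the grey ones, with Mir7052 highest at 13.3 and Mir124a-2 widest at 13879 bp.

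Most small RNA gene regions of the shorter lists touched a region of replicate 3, but fewer matched it in extent. All 4 of replicate 1 overlapped replicate 3 (1 bp sufficed), and 32 of 35 of replicate 2 did (91.4%, Wilson interval 77.6 to 97.0). Counting overlap with any other replicate, the shares were 100% in replicate 1, 91.4% in replicate 2 and 7.28% in replicate 3 (30 of 412), against 95.3%, 92.3% and 11.7% of all regions. Counting only overlaps that filled 50% or more of each region, the shares were 25%, 28.6% and 2.91%, and with summits within 200 bp 100%, 40% and 3.64%. The 30 shared regions of replicate 3 had a median fold of 6.04 and a median width of 950.5 bp, where the 382 unshared ones had 3.81 and 407 bp. The stricter overlap shares and this split are given for small RNA gene regions only. Whether they differ from those of all regions was not tested.

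The gene assigned to an overlapping region was not always the same. Of the 32 regions of replicate 2 that overlapped replicate 3, 25 were assigned to the same small RNA gene there and 7 to another gene. The region of Mir484 matched one assigned to Marf1, that of Mir1894 one assigned to Mrps18b, and that of Mir125b-1 one assigned to 3110039I08Rik. Regions of Gm27611 and of a misc_RNA gene with no symbol both fell in the region assigned to Sox2, a transcription factor of neural progenitors and glia. That region had a fold of 16.3 in replicate 3. The region of Gm27645 matched one assigned to the transcription factor gene Zeb2, with a fold of 15.4 in replicate 3. For these regions the small RNA gene was 1 of at least 2 genes to which the same stretch was assigned.

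Of 317 small RNA genes with a region in any replicate, 27 (8.52%) had one in at least 2 replicates, and Rnu2-10 alone had one in all 3. They were 12 miRNA, 8 snRNA, 4 snoRNA and 3 misc_RNA genes, and for 26 of the 27 the regions overlapped between replicates. Matched to RefSeq, 19 of 3666 small RNA genes (0.518%, Wilson interval 0.332 to 0.808) had a region in at least 2 replicates, where the share of RefSeq genes of any kind was 2.71%. Of the 25 small RNA genes with a region in replicates 2 and 3, 21 had the higher fold in replicate 3 (84.0%), as did 994 of 1253 other genes (79.3%). Each fold was that of the gene's strongest region in a replicate, and these need not overlap between replicates. For Gm23882 the strongest region of replicate 3 had a fold of 5.16. The one that overlapped its region of replicate 2 (fold 4.19) had 3.09. A fold is relative to the background of its own library, and the part of depth and of list length in this was not tested.

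**Figure D4:**
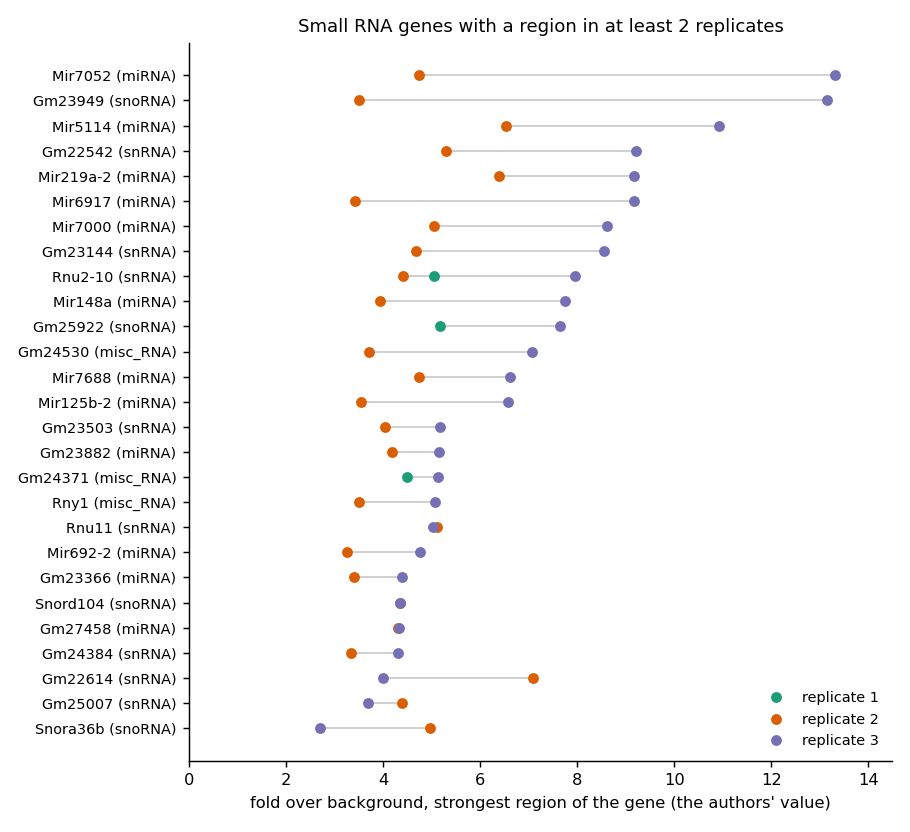
Fold over background of the strongest region (x axis) in replicates 1 (green), 2 (orange) and 3 (purple) for the 27 small RNA genes with a region in at least 2 replicates, ordered by the value in replicate 3. Mir7052 and Gm23949 have the highest values in replicate 3, at 13.3 and 13.2, and Rnu2-10 has 3 points.

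Among the miRNA genes of neurons, the widest region lay over Mir124a-2, one of the genes of miR-124, a miRNA abundant in neurons. In replicate 3 a region of 13879 bp with 30 summits (chr3:17783353-17797231) covered the gene and overlapped its host gene Mir124-2hg. Its fold was 6.31, from 47 fragments. Replicate 2 had 6 separate regions inside that interval, all assigned to Mir124-2hg, with folds of 2.96 to 3.90, and replicate 1 had none there. A second gene of the same miRNA, Mir124a-3, had a region in replicate 3 alone (chr2:180892758-180892993), 1047 bp before its start, with a fold of 3.51.

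Mir125b-2 and Mir99a lie near each other on chromosome 16, within long transcripts of the non-coding host gene Mir99ahg in the annotation the authors used. Mir125b-2 had 1 region in replicate 2 (chr16:77643961-77644639, fold 3.55, pileup 23) and 4 in replicate 3. The strongest of these (chr16:77643019-77645297) reached 6.57 in fold and 42 fragments in pileup, and another (chr16:77645857-77647733, fold 5.24) covered the mature sequence shown above. Mir99a had a region in replicate 3 that ended 640 bp before its mature sequence (chr16:77597642-77598300, fold 4.15). Under the name of Mir99ahg itself, replicate 2 held 2 regions and replicate 3 held 11, of which the highest fold was 12.1 (chr16:77593866-77597269). The related gene Mir99b, on chromosome 17, had a region in replicate 3 with a fold of 3.59 (chr17:17828604-17828970). Mir125b-1, the other source of miR-125b-5p, had a region in replicate 2 alone under that name (chr9:41582302-41582793, fold 4.04), 301 bp from the mature sequence and within the long non-coding gene Mir100hg. Mir132, whose miRNA is induced by neuronal activity, had a region over part of the hairpin in replicate 3 (chr11:75173378-75173695, fold 3.66). Mir218-2, whose miRNA is known from motor neurons, had an intronic region of Slit3 with a fold of 3.23 (chr11:35624603-35624815).

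Counted over lists of genes, miRNA genes of neurons had a region for 7 of 30 in replicate 3, 2 of 30 in replicate 2 and 0 of 30 in replicate 1. The share in replicate 3 (23.3%) stands beside 6.76% of miRNA genes in RefSeq and 16.0% of RefSeq genes of any kind. The lists were chosen with earlier results of these data known, so their shares are a description. Of 19 oligodendrocyte and glial miRNA genes, 2 had a region in replicate 3, and of 19 myeloid and inflammatory miRNA genes 0 had one in any replicate. The upper Wilson limit of 0 of 19 is 16.8%, and a missing assignment is no evidence that Runx1 was not bound. Of 6 miRNA genes in Hox clusters, Mir196a-2 had a region (chr15:102972117-102973329, fold 5.25), which ended 36 bp before the mature sequence. Of 23 genes of the let-7 and miR-17 to 92 type clusters, Mirlet7i had 2 regions, the stronger on the mature sequence itself (chr10:122984824-122985713, fold 4.82).

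Mir219a-2 was covered by a region in 2 of 3 replicates. Its miRNA, miR-219, promotes oligodendrocyte differentiation. The gene was covered by a region of 1900 bp in replicate 2 (chr2:29844817-29846716, fold 6.39, pileup 28) and by one of 3797 bp with 9 summits in replicate 3 (chr2:29843288-29847084, fold 6.79, pileup 40). These regions lay at the 95.7 and 94.1 percentile of fold in their lists. A second region of replicate 3, 10860 bp from the mature sequence and within the RefSeq body of Cercam, had a fold of 9.17 (chr2:29856569-29856940) and no counterpart in replicate 2. Replicate 1 had no region within 20 kb. The other member of the list, Mir3065, had a region with a fold of 3.81 in the gene Aatk (chr11:120013380-120013881).

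**Figure D5:**
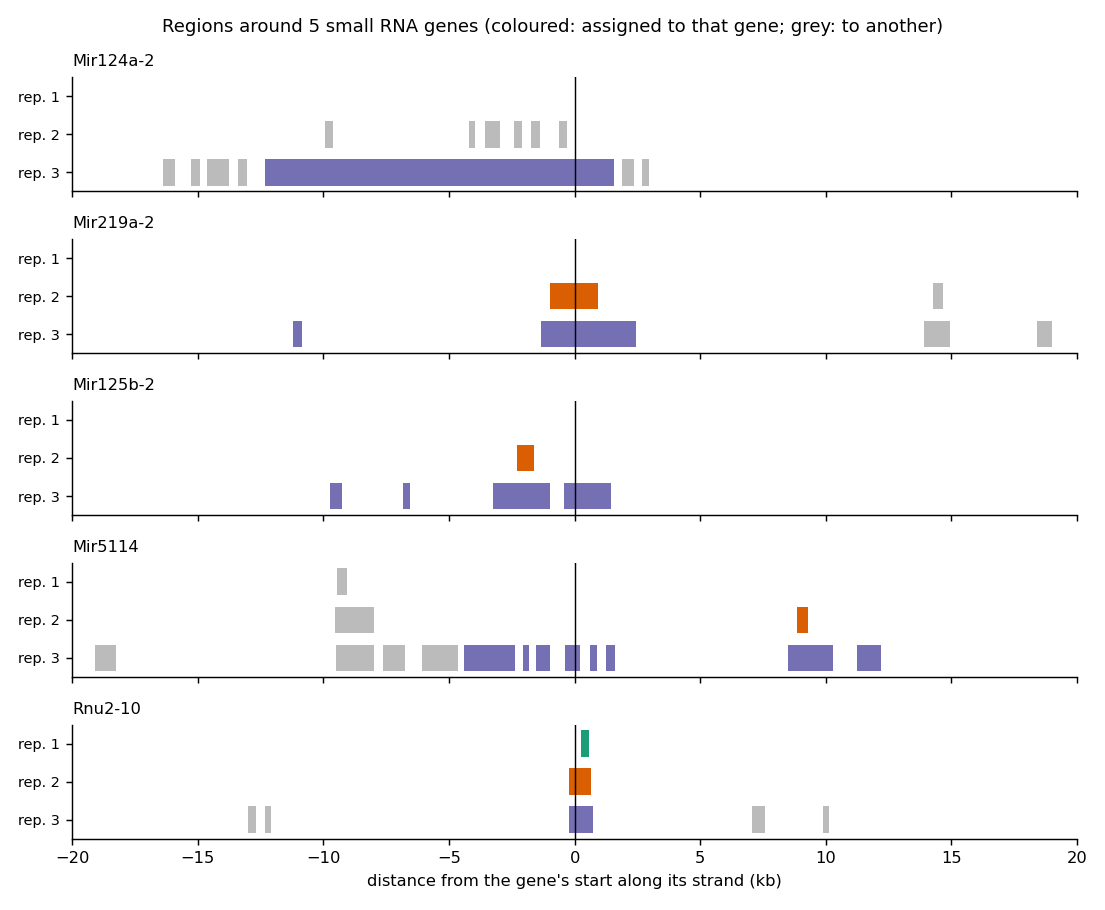
Regions of replicates 1, 2 and 3 within 20 kb of 5 small RNA genes, drawn to scale as distance in kb from the gene's start (x axis) along its strand, coloured where the authors assigned them to that gene and grey where they were assigned to another. The start of Mir219a-2 and that of Rnu2-10 are each covered by a region in replicates 2 and 3, and the 13879 bp region of Mir124a-2 in replicate 3 spans the 6 regions of replicate 2.

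Several other miRNA genes with high folds lay at a distance from their regions, and a few were at or near them. The strongest small RNA gene region of replicate 3 was assigned to Mir7052 (chr7:44474189-44476112, fold 13.3, pileup 109, 95% Poisson interval 89.5 to 131), 3778 bp from its mature sequences. The matching region of replicate 2 had a fold of 4.74 and a pileup of 20. Gm24710 followed with a fold of 13.2 (chr10:37812335-37813081, pileup 63), 118599 bp from the gene. Mir1936 had a region in an intron of Itpk1, an inositol phosphate kinase gene, with a fold of 11.2 and the highest number of fragments, 116 (chr12:102678629-102680117). Gm24710 and Mir1936 had regions in replicate 3 alone, as did Gm26141 (fold 10.4, in Ppp1r16b, 728 bp from the gene), Gm24484 (fold 9.77) and Gm27773 (fold 9.29).

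Mir5114 had 8 regions in replicate 3 across 16629 bp of chromosome 19, in and beside Scd2, a fatty acid desaturase gene. The strongest, 8457 bp from the mature sequence (chr19:44311649-44313440), reached 10.9 in fold and 59 fragments in pileup, and the other 7 had folds of 2.70 to 4.74. Replicate 2 had 1 region inside it (chr19:44312031-44312449, fold 6.52, pileup 30). Mir6917 had regions with folds of 3.42 and 9.16 in replicates 2 and 3 (chr10:128586366-128587377 in replicate 3), both inside Erbb3, a neuregulin receptor gene. Mir7000, inside Mapk8ip1, had folds of 5.05 and 8.62, and Mir7688 had 4.74 and 6.63, both at promoters of the miRNA gene in replicate 3. Mir148a had a region of 5655 bp with 12 summits (chr6:51177504-51183158, fold 7.75) that lay 86671 bp from its mature sequences. In replicate 2 it had 2 regions inside that interval, with folds of 3.94 and 3.80.

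A few genes of the splicing machinery's own RNAs had regions at or near their starts. Rnu2-10 encodes U2, which recognises the intron branch point. Its fold was 5.05 in replicate 1 (chr11:101658503-101658807), 4.41 in replicate 2 (chr11:101658016-101658896) and 7.95 in replicate 3 (chr11:101658015-101658985), from pileups of 18, 19 and 43 fragments. The 3 regions overlapped, and those of replicates 2 and 3 covered the gene. Rnu11 encodes U11, which recognises the 5′ splice site of minor introns. It had folds of 5.11 and 5.04 in replicates 2 and 3 (chr4:132269745-132270666 in replicate 3). Rnu1a1, a U1 gene, and Rnu5g, a U5 gene, had regions at the start in replicate 3 alone, with folds of 5.90 and 4.05. snRNA genes exist in near-identical copies, and the sources used here do not say how reads matching several copies were treated, so which copy was recovered is uncertain.

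A list of spliceosomal and other small RNA genes had 19 members, of which 7 had a region in replicate 3 (36.8%). In replicate 2 there were 2, and in replicate 1 there was 1. Beside this, 16.0% of all genes and 5.68% of snRNA genes had a region in replicate 3. The list also held Rn7sk and U3 genes, and Rn7sk, Rnu3a and Rnu3b1 were among the 7. Rn7sk, whose RNA restrains transcription elongation by RNA polymerase II, had a fold of 4.20 (chr9:78175286-78175693). The 85 regions of predicted snRNA genes were of another kind, with 13 in the promoter class. The strongest in replicate 3 were those of Gm22542 (folds 5.29 and 9.21 in replicates 2 and 3, chr17:88325633-88326720 in replicate 3), Gm23144 (4.67 and 8.55) and Gm22500. The 2 regions of Gm22500, in Igsf11, had a fold of 8.28 each. Gm22614 had the highest fold of all small RNA gene regions of replicate 2, 7.09, and 4.00 in replicate 3. Gm23503 had folds of 4.03 and 5.17, with the region of replicate 3 at 269501 bp from the gene.

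In replicate 3 the promoter class held 9 of 13 regions of named snoRNA genes and 3 of 46 of predicted ones. The strongest of all was assigned to Gm23949 (chr9:99770415-99771344), with folds of 3.49 and 13.2 in replicates 2 and 3, at 19897 bp from the gene. Gm25922, in an intron of Pepd, had a region in replicate 1 with 5.17-fold signal from 16 fragments (chr7:34939292-34939713). In replicate 3 that region had a fold of 6.27 (chr7:34939251-34939985), and another had 7.66. Rnu3b1, Rnu3b3 and Rnu3b4, copies of the gene of U3, which acts in the first cuts of the ribosomal RNA precursor, had regions on the gene in replicate 3 alone with folds of 5.78, 4.40 and 5.82. The same caution on near-identical copies holds for these. Snord104 had a region over its start in replicates 2 and 3 with folds of 4.35 and 4.36 (chr11:106500795-106501696 in replicate 3). Snord118, the gene of U8, had a fold of 4.04.

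Among misc_RNA genes, Rny1, which encodes a Y RNA bound by the Ro60 protein, had folds of 3.50 and 5.07 in replicates 2 and 3 (chr6:47787909-47788660 in replicate 3), and its neighbour Rny3 had 3.39 in replicate 3. The highest misc_RNA folds of replicate 3 were those of Gm25888 (8.24, the strongest of 6 regions), Gm27993 (8.17) and Gm27715 (7.76). Gm24530 had folds of 3.71 and 7.06 in replicates 2 and 3, within Slc22a23. Gm27403 had a region of 4688 bp with 12 summits and a fold of 6.93 inside Sox2ot, the long non-coding gene that surrounds Sox2 (chr3:34559654-34564341). The 4 scaRNA regions belonged to Gm22387 (folds 6.33 and 5.07), Gm23370 (4.74) and Gm27653 (3.06).

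Few small RNA gene regions lay at the start of another gene that the RefSeq table holds. Of the regions of replicate 3 on chromosomes in that table, 22 of 381 (5.77%, Wilson interval 3.84 to 8.59) lay within 1 kb of the start of a coding or long non-coding gene, against 49.2% of 12348 other regions. The shares were 3 of 33 and 57.1% in replicate 2, and 1 of 4 and 65.5% in replicate 1. The table holds starts for 27025 of 34631 such genes (78.0%), so the counts are lower bounds. The rule kept regions assigned to a small RNA gene and not to another, so these shares are a description. For the other regions the start of their own assigned gene counted as well, so the shares are not like measures. In replicate 3, 212 of the 412 regions (51.5%) lay in the body of a RefSeq coding gene, 57 (13.8%) in that of a long non-coding gene and 154 (37.4%) in neither. A region each of Gm44313, Gm44314 and Gm44394, which are annotated as miRNA genes, lay within 1 kb of the histone genes H2aw, H2bc3 and H2ac8.

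The 250 bases before and 50 after a RefSeq start were searched on both strands for the Runx core words TGTGGT and TGCGGT, which differ in the third letter, so that no match counts for both. Small RNA gene regions of replicate 3 overlapped 14 such windows, and 7 of them (50%, Wilson interval 26.8 to 73.2) held either word. Of all 32851 windows, 22.4% did, as did 21.3% of the 6441 windows overlapped by other regions. With 14 windows this is a description, and a match is not a bound site. The stretches around the match are shown for 3 windows next to named small RNA or histone genes, from RefSeq (GRCm38.p6), read 5′ to 3′ on the strand of the match with the match in capitals. The first is chr19:8888653-8888658 at the Snora57 region, the second chr9:78175692-78175697 at the edge of the Rn7sk region, and the third chr13:23746547-23746552 before H2bc3, outside the Gm44314 region but within the same window.
1810009A15Rik: ggggaccgggcgTGCGGTcccgctccccgt
C920006O11Rik: taactttacacaTGTGGTgaccttatgtag
H2bc3: ctacacaatctaTGTGGTatgttaacagta

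Genes of the proteins that make and use small RNAs had a region for 61.9%, 61.1% and 64.5% of the members of 3 lists in replicate 3, where 31.5% of coding genes had one. In replicates 1 and 2, 1.51% and 5.17% of coding genes had one. Of 21 microRNA processing genes, 3, 5 and 13 had a region in replicates 1, 2 and 3. Tarbp2, a partner of Dicer, had promoter regions with folds of 4.13, 5.00 and 7.68, and Tnrc6c, which links Argonaute to silencing, had 5.67, 4.21 and 6.01. For Tnrc6c the strongest region of replicate 2 did not overlap the strongest ones of replicates 1 and 3. Prkra had folds of 5.65 and 6.22 in replicates 2 and 3, and Dis3l2, a nuclease of let-7 precursors, had 3.71 and 4.21. Of 18 snoRNP genes, 1, 2 and 11 had a region. Nop56, a core protein of box C/D particles that also hosts snoRNAs, had folds of 5.40, 3.56 and 4.52, and Pih1d1 had 3.21 and 4.28 in replicates 2 and 3. Of 31 genes of snRNA transcription and snRNP assembly, 1, 4 and 20 had a region. Hexim1 and Mepce, which act with 7SK, had folds of 9.03 and 5.62, and of 6.61 and 5.17, in replicates 2 and 3. Snrpa, a U1 protein, had 5.12 and 5.36 in the same replicates, and Ints6 had 4.49 and 6.15 in replicates 1 and 3. Of 42 small RNA host genes, coding and long non-coding, 2, 12 and 20 (47.6%) had one in replicates 1, 2 and 3. Over RefSeq genes of any kind the share was 0.781%, 2.59% and 16.0%. For long non-coding genes it was 4.86% in replicate 3. Nop56 was counted in this list too. Snhg11 had folds of 8.88 and 10.4 in replicates 1 and 3, and Eif4a1 had 3.31 and 8.64 in replicates 2 and 3. These lists were chosen with earlier results of the data known, so their shares are given as a description, with no test.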

How the data were processed

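Spinal cord Runx1 ChIP-seq was analysed from the authors' deposited peak lists and annotated tables, called separately for each of 3 replicates. Per the submitters' processing notes, the tools included MACS2 2.1.2, Bowtie2, Trimmomatic 0.38, Picard 2.18.26, SAMtools 1.9 and FastQC, with the build GRCm38. Their settings, read totals and any control library: not given in the sources used here. For each summit the deposited lists hold a score, the ratio to background (fold), −log10 p and −log10 q, and the authors' tables give a location class and an assigned gene for each region.

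Members are regions whose assigned gene has biotype miRNA, snoRNA, snRNA, scaRNA or misc_RNA. A region took the fold of its strongest summit. Pileups were solved from fold and −log10 p under a Poisson model, within 0.001 for 100% of the regions tried, and have exact Poisson intervals. Shares have 95% Wilson intervals. Overlap meant at least 1 bp. Coordinates count from 1. Differences between small RNA gene regions and all others were taken within each replicate and tested by an exact two-sided sign-flip permutation test, for 3 results with no adjustment, since none can pass. Genes were matched to RefSeq by symbol or synonym. Alternatives were a q of 1e-05, a fold of 5, equal list length, miRNA only, no misc_RNA, other definitions of overlap, promoter and gene start, and leaving out each replicate.

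The members and lists were chosen with earlier results of these data known. Named genes were up to 15 with a region in at least 2 replicates, the 10 highest folds, the 5 widest regions and 3 highest folds of each biotype in replicate 3, and up to 6 (small RNA) or 4 (protein and host) genes of each list. Other genes named were chosen after their values were seen. Routines were tested on simulated data. Software was matplotlib 3.10.9, scipy 1.17.1, pandas 2.3.3 and numpy 2.4.6 under Python 3.11.15.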

Additional observations from a re-analysis of the deposited data

How the results depend on the processing

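The number of small RNA gene regions in replicates 1, 2 and 3 was 1, 14 and 210 at a q of at most 1e-05, 2, 7 and 89 at a fold of at least 5, and 0, 16 and 199 for miRNA alone. Among lists of equal length it was 8 in replicate 2 and 16 in replicate 3. The mean difference in promoter share stayed negative under the alternatives tried, at -35.6 to -29.6 percentage points without 1 replicate, -14.6 at the stricter q and -5.37 for genes without a Gm number, an alternative chosen after seeing the data. It was not negative in every replicate: replicate 1, with 1 region left, gave 15.3 points at the stricter q and 100% against 83.0% of other regions without Gm numbers, and replicate 2 gave 0.51 among lists of equal length. For miRNA alone replicate 1 had no value. The difference in log2 fold turned to -0.035 at the stricter q, to -0.11 at a fold of 5, and ranged from -0.0085 (without replicate 2) to 0.040 (without replicate 1). The difference in log2 width turned to -0.047 at the stricter q, -0.044 at a fold of 5 and -0.037 with equal lists, and was 0.038 to 0.23 without 1 replicate. The cause of these turns was not tested. With 50% of both regions overlapping, the share found in another replicate was 25%, 28.6% and 2.91% in replicates 1, 2 and 3, and with summits within 200 bp it was 40% and 3.64% in replicates 2 and 3. Genes with a region in at least 2 replicates numbered 7 at a fold of 5, and 1 to 25 without 1 replicate: 25 without replicate 1, 3 without replicate 2 and 1 without replicate 3. Regions at the start of another gene made up 0% of replicate 1 within 500 bp, and 27.3% and 11.3% of replicates 2 and 3 within 3 kb. The share of annotated small RNA genes with a region was 6.14% by gene body and 6.11% by gene end, the latter chosen after seeing the data. Counts per replicate have no version without a replicate. No paired analysis was possible because all samples belong to 1 group. The 4 regions of replicate 1 limit every mean over replicates.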
